A study of Mus musculus with 10 samples.

Results

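The cytosolic ribosome is built from ribosomal RNA and a set of proteins with Rpl genes encoding those of the large subunit and Rps genes those of the small subunit. Their mRNAs are among the most abundant in dividing cells, and many begin with a run of pyrimidines through which growth signalling controls their translation. A few of these genes have a retained second copy, a paralog, and some of these copies are known from germ cells. Embryonic stem cells (ESCs) divide rapidly and make ribosomes at a high rate. The levels of these mRNAs were compared across 5 lines of mouse ESCs. A symbol was included when it was Rpl or Rps followed by a digit, or Rplp0, Rplp1, Rplp2 or Rpsa, and the Rps6k kinases were left out. This gave 92 of the 21853 listed protein-coding genes, and 88 of the 92 reached 1 TPM in at least 2 libraries. TPM gives the abundance of a transcript relative to its library, per unit of length. The 88 members comprised 46 large-subunit and 31 small-subunit proteins (77 canonical proteins), 7 of 8 paralogs (Rpl39l, Rpl10l, Rpl22l1, Rpl7l1, Rpl36al, Rps27l and Rps27rt), 3 of 6 symbols named as pseudogenes and Rps19bp1, a nucleolar binding partner of Rps19 that the spelling of its symbol admits. Rpl3l, Rpl10-ps3, Rpl36-ps4 and Rpl9-ps1 did not pass. Just outside stood Rpl3l, which reached 1.154 TPM in 1 library, and just inside stood Rpl36a-ps1, with 0.512 to 2.33 TPM.

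RNA was sequenced from 2 libraries of each line. Naïve ESCs were the wild-type J1 line, cultured on gelatin in serum with LIF, the MEK inhibitor PD0325901 and the GSK3 inhibitor CHIR99021. AKO lacked the catalytic AMPK subunit Prkaa1 (edited with a commercial CRISPR and repair plasmid and sorted by a red fluorescent protein). GKO lacked the muscle glycogen synthase Gys1 (Cas9 guided to exon 9, single clones picked). DKO lacked both, and these lines were in the same medium as naïve ESCs. Primed ESCs (PJ1) were J1 cells kept with bFGF and Activin A on Matrigel, and their genotype is given as WT. Neither the labels nor the methods tie the 2 libraries of a line to clones or separate cultures, so a p-value here measures the spread between 2 libraries of a line, which may be technical. In the check of the labels, Prkaa1 had 15.5 and 16.6 TPM in naïve ESCs, 7.24 and 6.94 in AKO and 2.30 and 2.035 in DKO, while Gys1 mRNA, which an indel need not lower, had 11.5 and 10.8 TPM in naïve ESCs 12.1 and 11.7 in DKO, against 9.70 and 9.98 in GKO. In DKO, which is also labelled as lacking Gys1, its mRNA was therefore above both naïve libraries, and the mRNA level does not check that label. Prkaa2, the other catalytic subunit of AMPK, was at 2.385 to 3.294 TPM outside primed ESCs, which had 8.30 and 9.38 TPM. The 9 naïve markers summed to 1704 and 1666 TPM in naïve ESCs, 1724 and 1716 in AKO, 1865 and 1948 in GKO and 1912 and 1909 in DKO. GKO and DKO thus lay above both naïve libraries. Primed ESCs had 137 and 139 TPM, with Dppa3 listed at 0 in both primed libraries. The 7 primed markers summed to 52.4 and 52.5 TPM in naïve ESCs, 45.1 and 43.9 in AKO and 49.8 and 52.0 in DKO. Their sums were 71.1 and 70.6 TPM in GKO, above both naïve libraries, and 406 and 454 TPM in primed ESCs. Markers of primitive endoderm (6 genes) and of fibroblasts (7 genes) summed to at most 13.1 and 15.3 TPM, and in bulk RNA fewer cells of a type and less RNA per cell cannot be told apart. The Y-linked genes Eif2s3y and Ddx3y were listed at 0 in the 6 naïve, AKO and primed libraries. Eif2s3y was at 37.3 to 41.5 TPM in the 4 GKO and DKO libraries. Ddx3y was at 8.106 and 7.825 TPM in GKO and 22.9 and 20.9 in DKO. GKO and DKO therefore differed from naïve ESCs by more than the labelled edits. An edit, or the culture of primed ESCs, and the history of a line cannot be told apart in any comparison of these lines.

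The widest differences between lines were those of the paralogs Rpl39l and Rpl10l. Rpl39l encodes a close copy of Rpl39, a small protein that lines the exit tunnel of the ribosome, and Rpl10l one of Rpl10, which joins the large subunit late and sits near its peptidyl transferase centre. Both parent genes are X-linked and both copies are autosomal, and Rpl39l and Rpl10l are known for expression in the male germ line, where the X chromosome is silenced. In GRCm39, Rpl39 lies at chrX:36345092-36349130 on the minus strand and Rpl39l at chr16:9949671-9992780 on the plus strand, where the annotation places its whole coding sequence in 1 of 3 exons. Rpl10 lies at chrX:73314418-73316741 on the plus strand and Rpl10l at chr12:66329273-66331181 on the minus strand, with 1 of its 2 exons coding. The coding sequences of Rpl39 and Rpl39l have 153 bases each and differ at 23 of them, in 21 of 51 codons, and 3 of these codons change the amino acid. They are shown because the values below depend on how well reads of the pair can be separated. Capitals mark the bases that differ.
Rpl39: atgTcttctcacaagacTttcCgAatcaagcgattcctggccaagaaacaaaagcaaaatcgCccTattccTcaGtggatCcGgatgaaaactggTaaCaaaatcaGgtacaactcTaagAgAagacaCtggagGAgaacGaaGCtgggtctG
Rpl39l: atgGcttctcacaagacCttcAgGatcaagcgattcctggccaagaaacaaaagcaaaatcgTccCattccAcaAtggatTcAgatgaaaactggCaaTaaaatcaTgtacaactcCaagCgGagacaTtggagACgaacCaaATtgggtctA
No stretch of 75 bases was shared between the annotated transcripts of any of the 7 parent and paralog pairs compared, Rpl39 with Rpl39l and Rpl10 with Rpl10l included. Rpl39l shared none of its 747 stretches with another gene, and Rpl10l shared 0.220% of 1363. Rpl10 itself shared 83.8% of its 75-base stretches with other annotated genes, so its level was more open to how the authors' program divided reads among copies. The sample records give this read length and the study's methods a longer one, over which sharing was not computed.

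The start of transcription was examined because a pyrimidine run there, a 5′ terminal oligopyrimidine (TOP) run, is the shared mark of this gene class. RefSeq promoters of build GRCm38.p6 were found for 57 of the 77 canonical members and for 7 paralogs. A run was counted when 1 C and at least 4 further C or T began within 5 bases of the annotated start. It was present in 43.3% of 67 canonical promoters, 3 of 8 paralog promoters and 18.3% of all 32851 promoters. In the windows of 30 bases below, 10 bases before and 20 after the annotated start, capitals mark that run. Rps6 is shown as a canonical example, Rpl15 and Rps24 as members that rose, and Rpl39, Rpl39l and Rpl10l from the pairs above.
Rps6, chr4:86857348-86857377, minus strand: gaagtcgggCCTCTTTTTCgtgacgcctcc
Rpl15, chr14:18270967-18270996, minus strand: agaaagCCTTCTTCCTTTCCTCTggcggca
Rps24, chr14:24490668-24490697, plus strand: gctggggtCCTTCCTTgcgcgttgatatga
Rpl39, chrX:37085203-37085232, minus strand: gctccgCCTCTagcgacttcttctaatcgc
Rpl39l, chr16:10170218-10170247, plus strand: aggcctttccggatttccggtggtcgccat
Rpl10l, chr12:66284382-66284411, minus strand: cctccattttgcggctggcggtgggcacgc
No run began that close to the start in the windows of Rpl39l and Rpl10l or of another annotated start of Rps24 (chr14:24490743-24490772). Each of these windows held a run of such letters that began further from the start. The window of Rpl10, the parent of Rpl10l, is not printed and had no run near the start either. On either strand of the 300 bases around the start, CCGGAAG was present in 37.3% of canonical promoters against 8.86% of all promoters, AAGATGG in 16.4% against 6.34%, GGGCGG in 61.2% against 35.7% and TATAAA in 8.96% against 13.6%. These are matches of letters in annotated windows.

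Together the 88 members held between 21.2% and 24.1% of the listed protein-coding TPM of a library. Their summed TPM was 134009 and 127211 in naïve ESCs, 135771 and 132287 in AKO, 109898 and 121673 in GKO, 120401 and 134935 in DKO and 115653 and 116030 in primed ESCs. Both GKO libraries and both primed libraries lay below every naïve and AKO library, and DKO overlapped with naïve ESCs. The listed genes, however, also summed to less than the 578066 and 565209 TPM of naïve ESCs, with 517712 and 531306 TPM for GKO and 512120 and 500162 TPM for primed ESCs. As a share of the listed TPM, the members were at 22.8% ± 0.478 (SD, n = 2) in naïve ESCs, 23.2% ± 0.360 in AKO, 22.1% ± 1.18 in GKO, 23.4% ± 1.03 in DKO and 22.9% ± 0.435 in primed ESCs, and the libraries of GKO, DKO and primed ESCs overlapped with the naïve range. With 2 libraries against 2, a two-sided exact permutation test cannot give a p below 0.333, so none was run on these sums. The ratio of large-subunit to small-subunit TPM was 1.353 and 1.355 in naïve ESCs, 1.322 and 1.342 in AKO, 1.320 and 1.338 in GKO, 1.308 and 1.286 in DKO and 1.420 and 1.460 in primed ESCs. Both primed libraries were above the other 8.

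**Figure D1:**
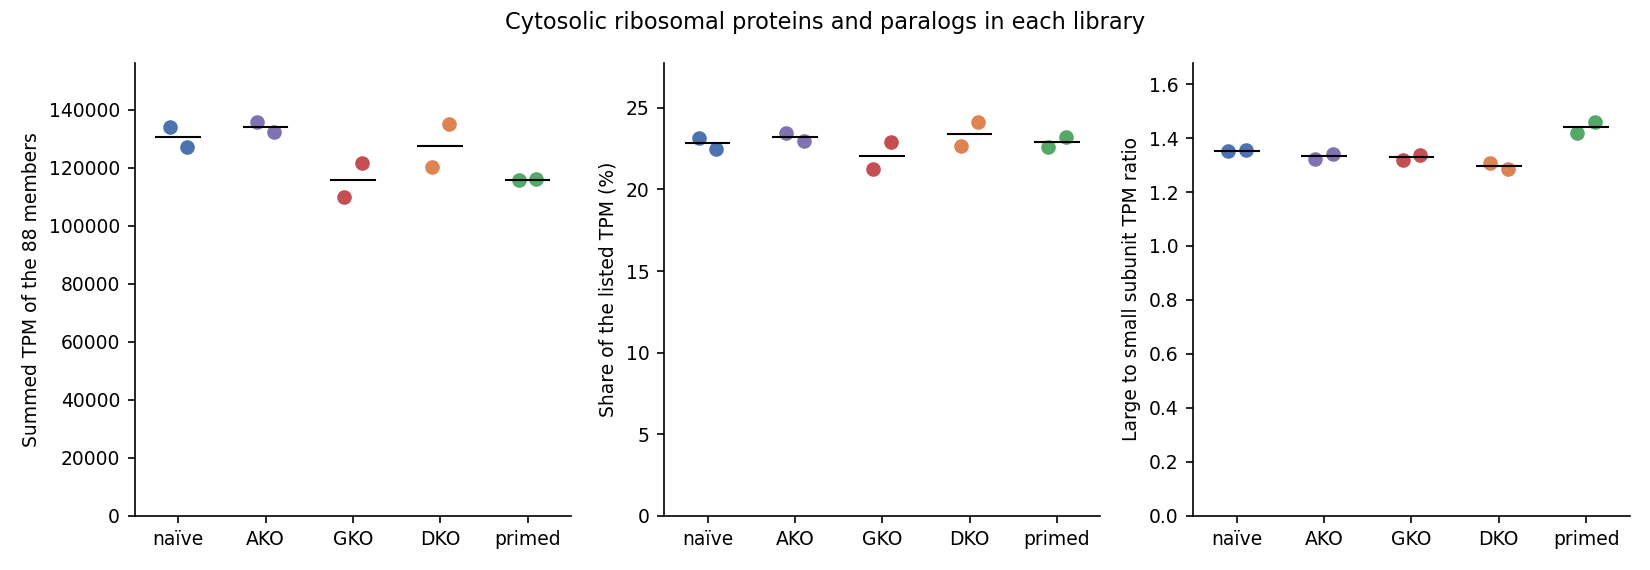
Summed TPM of the 88 members (left), their share of the listed protein-coding TPM in % (middle) and the ratio of large-subunit to small-subunit TPM (right) for the 2 libraries of each line (points), with the line mean (bar). The sums are lower in GKO and primed ESCs, the shares lie between 21.2% and 24.1% in all lines, and the ratio is above 1.4 only in the 2 primed libraries.

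Rpl39l had 51.0 and 53.4 TPM in naïve ESCs, 45.9 and 44.7 in AKO, 23.5 and 21.7 in DKO, 1.72 and 2.42 in GKO and listed at 0 in both primed libraries. The lines did not overlap with each other, and the order was naïve, AKO, DKO, GKO and primed. Differences are given below as log2(TPM + 1), tested with limma and adjusted over the 12060 genes that passed the filter. In DKO, Rpl39l fell by 1.18 ± 0.10 (SE, adjusted p = 3.99e-05), and its difference between AKO and naïve ESCs did not pass. Its parent Rpl39 had 695 and 668 TPM in naïve ESCs, 743 and 708 in AKO, 554 and 494 in DKO, 394 and 411 in GKO, with 377 and 470 in primed ESCs. Rpl39 thus fell as well, by 0.76 ± 0.098 in GKO (adjusted p = 0.000265), and in primed ESCs by 0.69 ± 0.098 (adjusted p = 0.000139). Rpl39l as a percentage of Rpl39 was 7.67% ± 0.453 (SD, n = 2) in naïve ESCs, 6.25% ± 0.0985 in AKO, 4.31% ± 0.108 in DKO and 0.514% ± 0.108 in GKO.

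Rpl10l showed a different order. It had 147 and 136 TPM in naïve ESCs, 154 and 157 in AKO, 156 and 164 in GKO, 70.0 and 74.0 in DKO, and 0 and 0.089 in primed ESCs. GKO lay at the level of AKO and above naïve ESCs, DKO lay well below all 3, and primed ESCs near 0. The difference between DKO and naïve ESCs was -0.96 ± 0.060 (adjusted p = 9.38e-06) and that between GKO and DKO was 1.14 ± 0.060 (adjusted p = 5.77e-06). A rise of 0.18 in GKO over naïve ESCs passed narrowly (adjusted p = 0.0333) and did not pass with a pseudocount of 0.1, without the intensity trend, or without naïve library 2 or any 1 AKO or GKO library. Rpl10, by contrast, had 2371 and 2360 TPM in naïve ESCs, 2269 and 2346 in AKO, 1713 and 1810 in DKO, 1384 and 1536 in GKO, with 1800 and 1776 in primed ESCs. It fell by 0.70 ± 0.067 in GKO (adjusted p = 5.39e-05), by 0.43 in DKO and by 0.40 in primed ESCs. Rpl10l was therefore 10.97% ± 0.456 of Rpl10 in GKO, 5.96% ± 0.312 in naïve ESCs, 6.73% ± 0.0543 in AKO and 4.09% ± 0.00160 in DKO. Fitted changes of Rpl39l and Rpl10l in primed ESCs depend on the pseudocount because those libraries are at or near 0, and no size is given for them.

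**Figure D2:**
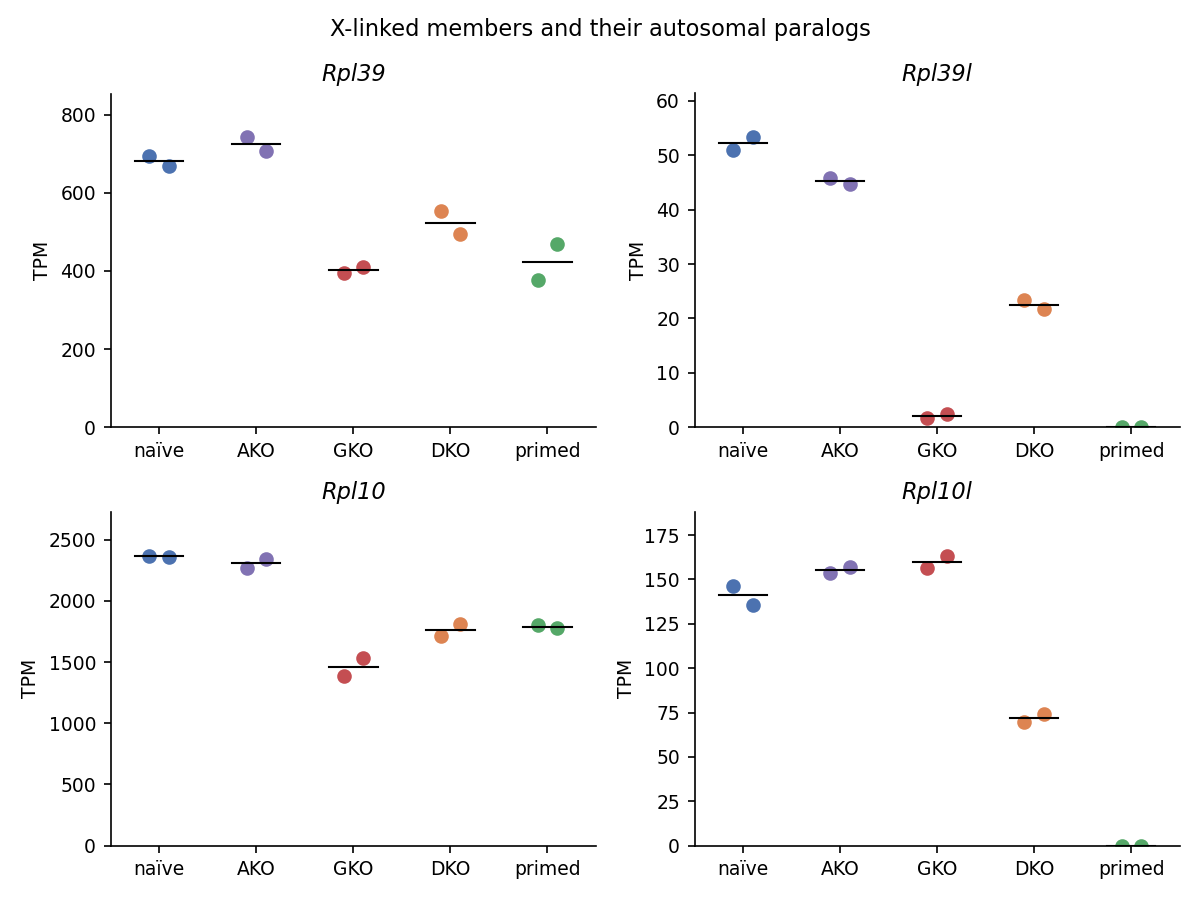
TPM of Rpl39, Rpl39l, Rpl10 and Rpl10l in the 2 libraries of each line (points), with the line mean (bar). Rpl39l is between 1.72 and 2.42 TPM in GKO while Rpl10l is at 156 and 164 TPM there, and both paralogs are near 0 in primed ESCs.

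The other paralogs varied less. Rpl22l1, whose parent Rpl22 is known for binding RNA outside the ribosome, had 267 and 253 TPM in naïve ESCs, 293 and 254 in AKO, 183 and 165 in DKO, 140 and 169 in GKO, with 194 and 254 in primed ESCs. GKO and DKO lay below naïve ESCs and AKO. Rpl22l1 fell in GKO by 0.75 ± 0.14 (adjusted p = 0.00167), and its fall of 0.58 ± 0.14 in DKO (adjusted p = 0.00746) did not pass without DKO library 2. Rpl22 did not pass in either. Rpl7l1, which acts in the assembly of the large subunit, had 152 and 153 TPM in naïve ESCs, 155 and 158 in AKO, 140 and 144 in DKO, 110 and 113 in GKO, with 77.5 and 75.5 in primed ESCs. GKO and primed ESCs each lay apart from all other lines. The change of Rpl7l1 was -0.45 ± 0.039 for GKO (adjusted p = 3.32e-05) and -0.99 ± 0.039 for primed ESCs (adjusted p = 2.76e-08), and as a percentage of Rpl7 it was 10.9% in naïve ESCs, 8.76% in GKO and, for primed ESCs, 6.57%. Rpl36al, which encodes the same protein as Rpl36a by codon (0 of 38 differing codons change the amino acid), had 450 and 398 TPM in naïve ESCs, 394 and 512 in GKO, 563 and 644 in DKO and 549 and 519 in primed ESCs. It was 20.9% of Rpl36a in naïve ESCs, 35.8% in DKO and 42.2% in primed ESCs. Rps27l, a known p53 target, stayed between 620 and 714 TPM in every library and did not pass in any comparison. Rps27rt, an intronless copy of Rps27, was at 11.6 and 13.9 TPM in GKO and 18.3 and 34.5 in DKO, and 90.3% of its 75-base stretches occur in other genes, so its level is uncertain.

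Most canonical ribosomal proteins were slightly lower in GKO than in naïve ESCs on the TPM scale. Of the 88 members, 39 passed, 4 higher and 35 lower, or 44.3%, where 51.7% of all genes tested passed (24.7% higher and 27.1% lower). The median change was -0.20 over the members and -0.01 over all genes tested, and the interquartile range of the changes was 0.22 over the members and 0.47 over all genes. In the large subunit 16 of 46 fell and Rpl15 rose, and in the small subunit 15 of 31 fell and Rps4x and Rps24 rose. Libraries did not overlap between GKO and naïve ESCs for 68 members, or 77.3%, against 81.6% of all genes. The split depended on the scaling: rescaling the listed genes to the same sum gave 9 higher and 23 lower with a member median of -0.07, and quantile normalization gave 17 higher and 18 lower with a median of -0.0037. The former moved the median of all genes to 0.09. The count was 21 without naïve library 1, 29 without naïve library 2 and 23 without GKO library 1. The 2 GKO libraries differed from each other in the same direction, with 81 of 88 members higher in library 2 and a median difference of 0.13, where the median over all genes was -0.003.

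**Figure D3:**
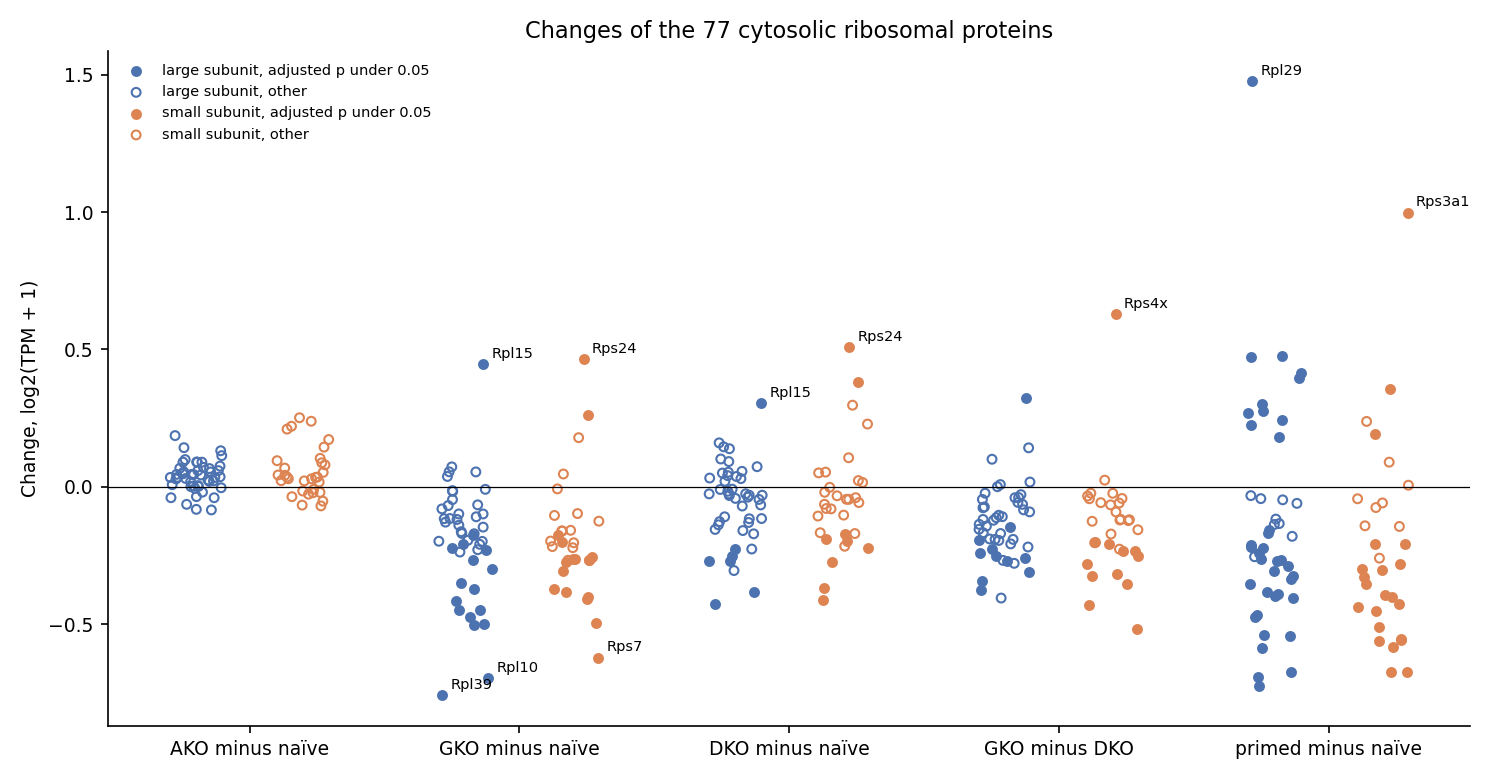
Change of each of the 77 canonical ribosomal proteins on the log2(TPM + 1) scale in 5 comparisons, with large-subunit proteins in blue and small-subunit proteins in orange, and filled points for an adjusted p under 0.05 (limma). Points lie near 0 in AKO, mostly below 0 in GKO, and spread most in primed ESCs, where Rpl29 and Rps3a1 stand at 1.48 and 1.00.

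Among the canonical members with the widest fall in GKO were Rpl39 and Rpl10 above and Rps7, a small-subunit protein that also binds Mdm2. Rps7 had 1236 and 1183 TPM in naïve ESCs, 1425 and 1454 in AKO, 915 and 900 in DKO, 758 and 814 in GKO, with 754 and 759 in primed ESCs. GKO and primed ESCs overlapped with each other and with no other line. The change of Rps7 was -0.62 in GKO and -0.41 in DKO, and it is named here after its values were seen. Rps24, which is mutated in Diamond-Blackfan anaemia, had 1894 and 1867 TPM in naïve ESCs, 1937 and 2083 in AKO, 2542 and 2646 in GKO, 2551 and 2802 in DKO and 2445 and 2368 in primed ESCs. GKO, DKO and primed ESCs were all above naïve ESCs and AKO. Rpl15, a large-subunit protein also known from that anaemia, had 587 and 584 TPM in naïve ESCs, 582 and 589 in AKO, 793 and 802 in GKO, 693 and 754 in DKO and 795 and 747 in primed ESCs. Rps24 rose by 0.46 ± 0.070 (adjusted p = 0.000624) and Rpl15 by 0.45 ± 0.055 (adjusted p = 0.000219) in GKO, and both rises passed under each scaling and without each library in turn.

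The canonical members that rose in GKO lay among genes with higher medians, and Rpl39, Rpl10 and Rps7 among genes with lower ones. Rpl15 and Rps24 are the canonical members on chromosome 14, on which the 391 other tested genes had a median change of 0.47 in GKO, 0.36 in DKO, 0.54 in primed ESCs and -0.01 in AKO. Within 10 Mb of Rps24, 85 other tested genes had a median of 0.41 in GKO, beside its own 0.46. On the X chromosome, Rpl39 and Rpl10 lie proximal to Rps4x (chrX:101228542-101233014) and Rpl36a (chrX:133486372-133488901). In GKO, the tested genes within 10 Mb had a median of -0.43 around Rpl39 (27 genes), -0.51 around Rpl10 (69), 0.38 around Rps4x (76) and 0.43 around Rpl36a (60). Beside these medians, Rpl39 changed by -0.76, Rpl10 by -0.70 and Rps4x by 0.26, and Rpl36a had a difference of 0.05 that did not pass. In DKO the same neighbourhoods had medians of -0.33, -0.35, -0.22 and -0.18, and all 4 genes fell, by 0.38, 0.43, 0.37 and 0.27, although the call of Rpl39 was lost by quantile normalization and without naïve library 1 or DKO library 2, and that of Rpl36a without any 1 naïve or AKO library or DKO library 1. Around Rps7 on chromosome 12, 45 genes had a median of -0.54 in GKO and -0.33 in DKO. In AKO, the 397 other tested genes of all chromosome 12 had a median of 0.16, against -0.01 elsewhere. Rps7 and Rps29, the canonical members there, changed by 0.25 and 0.24 in AKO, and neither passed. Over the 77 canonical members, the change and the median of the other genes of the same chromosome had a Pearson correlation of 0.513 in GKO and 0.614 in DKO (Spearman 0.224 and 0.305), given as a description, since genes of a chromosome share 1 median. The part of these regional shifts in the members' changes was not tested. In GKO and DKO, the 114 genes within 10 Mb of Rpl39l had medians of -0.16 and -0.04, the 61 genes near Rpl10l 0.24 and 0.22, and the 46 genes near Rpl22l1 0.06 and 0.02. The 0.18 of Rpl10l in GKO lay near the median of its neighbours. All 114 genes near Rpl39l and all 61 near Rpl10l had a higher value in DKO than that paralog. Rpl39l and Rpl10l were the members with the widest falls in DKO, so this order is a description and not a test.

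**Figure D4:**
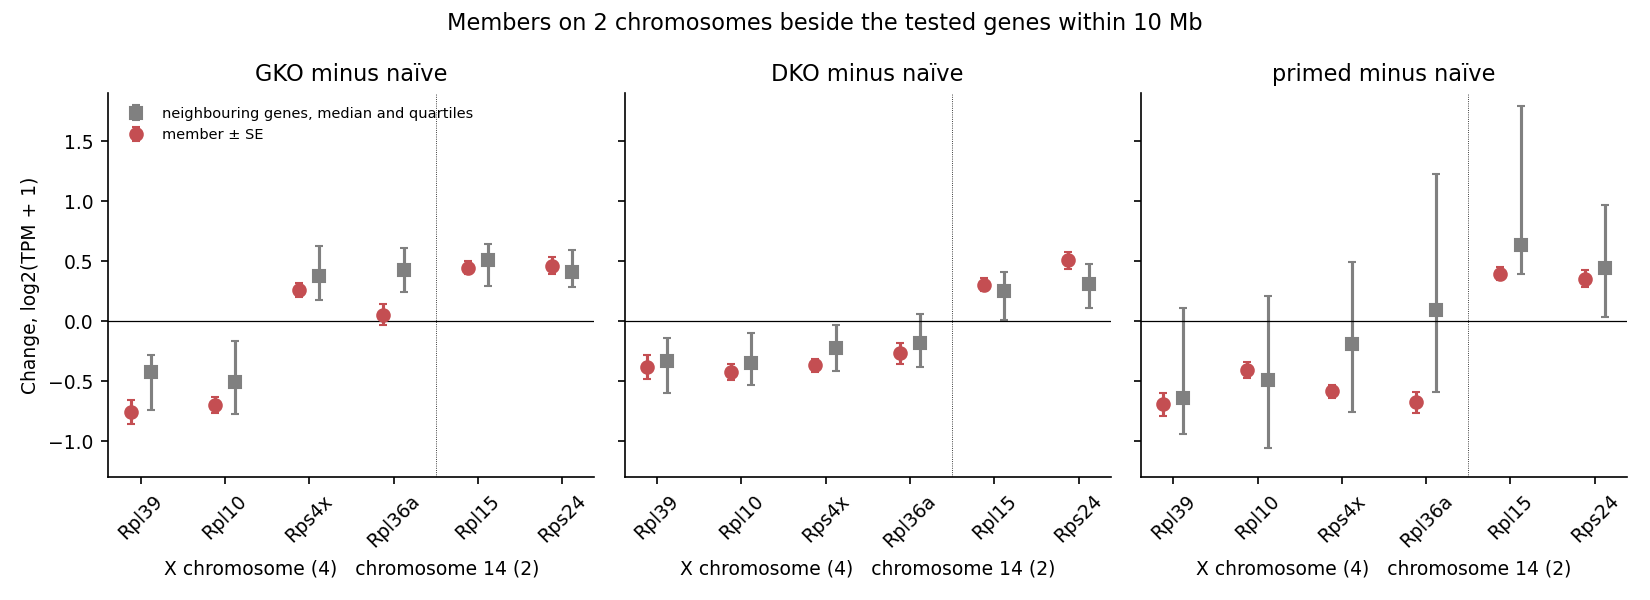
Change on the log2(TPM + 1) scale of 4 X-linked and 2 chromosome 14 members (red, ± SE) beside the median and quartiles of the other tested genes within 10 Mb (grey), in GKO, DKO and primed ESCs against naïve ESCs. In GKO the neighbours of Rpl39 and Rpl10 lie below 0 and those of Rps4x and Rpl36a above 0.

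Rps4x, the X-linked form of a small-subunit protein, differed in direction between GKO and DKO. It had 1962 and 1979 TPM in naïve ESCs, 2056 and 2000 in AKO, 2310 and 2410 in GKO, 1504 and 1549 in DKO and 1330 and 1296 in primed ESCs. GKO was highest and DKO and primed ESCs lowest, with no overlap between these 3 lines or with naïve ESCs. The difference between GKO and DKO was 0.63 ± 0.055 (adjusted p = 5.23e-05). Rpl36a had 2058 and 1996 TPM in naïve ESCs, 1952 and 2269 in GKO, 1578 and 1793 in DKO and 1242 and 1295 in primed ESCs. It was higher in GKO than in DKO by 0.32 ± 0.087 (adjusted p = 0.0157), a call lost without DKO library 1 or GKO library 2. Of the 75-base stretches, Rpl36a shared 84.8% and Rps4x 52.1% with other annotated genes.

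In DKO, 21 of 88 members passed against naïve ESCs, 5 higher and 16 lower, where 46% of all genes passed (21.7% higher and 24.3% lower), and the median change was -0.04. This median had no stable sign: it was 0.03 by quantile normalization, 0.02 by rescaling, 0.04 without DKO library 1 and -0.13 without DKO library 2. Libraries did not overlap for 44 members, against 78.8% of all genes. Leaving out naïve library 1 gave 11. Rescaling gave 12 higher and 11 lower, and quantile normalization 15 and 11. DKO shared 17 of the 39 calls of GKO, or 17 of its own 21, and 15 had the same sign. The matching share over all genes was not counted. Both comparisons use the same naïve libraries. The members that rose were Rpl36al (0.51), Rps24 (0.51), Rps21 (0.38), Rpl9-ps6 (0.31) and Rpl15 (0.30). Rps21 had 2955 and 2595 TPM in naïve ESCs and 3204 and 4070 in DKO, and its call was lost without naïve library 2 or DKO library 2, as was that of Rpl36al, while that of Rpl9-ps6 was lost without naïve library 1 or DKO library 2. The DKO libraries also differed in one direction, with 74 of 88 members higher in library 2.

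Between GKO and DKO directly, 29 members passed, 3 higher in GKO and 26 lower, where 43.5% of all genes passed (21.2% higher and 22.4% lower). The median difference was -0.15 over the members and -0.01 over all genes. The former was -0.04 by quantile normalization and -0.09 by rescaling, -0.05 without GKO library 1 and -0.06 without DKO library 2, and -0.23 without either of the others of these lines. This count rested on single libraries, with 8 called without GKO library 1 and 15 without DKO library 2. A fit with the libraries of these 2 lines only called 10, and a fit with no filter on low values called 19. Quantile normalization gave 9 higher and 14 lower. Among members with a mean of at least 5 TPM in the higher line, Rpl39l, Rps27rt, Rps27 and Rps29 had the lowest values in GKO relative to DKO, and below that level Rpl9-ps6 had -0.45. Rps27, a zinc-finger protein of the small subunit, was at 2466 and 2972 TPM in GKO and 3286 and 4581 in DKO, a difference of -0.52 ± 0.15 (adjusted p = 0.0201). Rps29 was at 1920 and 2575 TPM in GKO and 3098 and 2907 in DKO, a difference of -0.43 (adjusted p = 0.0379). The calls of Rps27 and Rps29 were lost without GKO library 1 and without DKO library 2, that of Rps29 also by quantile normalization and without any 1 naïve or AKO library or DKO library 1, and that of Rps27rt without GKO library 1. The interaction (GKO minus naïve) minus (DKO minus AKO) compared the difference of GKO from naïve ESCs with that of DKO from AKO. Of all genes 25.8% passed, and so did 10 members, or 11.4%. These were Rpl39l, Rpl10l, Rps4x, Rpl9-ps6, Rpl36a, Rplp1, Rpl7l1, Rpl10, Rpl21 and Rps19 (the last named after its value was seen), the largest being -3.15 ± 0.14 for Rpl39l and 1.28 ± 0.085 for Rpl10l. Between 5 and 13 were called when a library was left out.

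In AKO, 0 of 88 members passed by limma, where 0.224% of all genes passed (0.0663% higher and 0.158% lower), and 6 members had an unadjusted p under 0.05. No other setting called a member. The median difference from naïve ESCs was 0.04, the interquartile range of the members was 0.07, and the lowest adjusted p was 0.142. For 42 members, or 47.7%, the AKO and naïve libraries did not overlap, against 49.3% of all genes. On the TPM scale AKO held the highest line mean for 37 of the 77 canonical proteins, without a test of that order. It was not counted over all genes. The median difference of the members became 0.02 by rescaling and -8.9e-16 by quantile normalization.

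Primed ESCs differed from naïve ESCs in 64 of 88 members, 15 higher and 49 lower, or 72.7%, where 80% of all genes passed (37.4% higher and 42.5% lower). The median change was -0.25 over the members and -0.05 over all genes, and the interquartile range was 0.39 against 1.12. In the large subunit 11 rose and 26 fell, and in the small subunit 3 rose and 19 fell. Rescaling gave 19 higher and 30 lower with a median of -0.07 and moved the median of all genes to 0.11, median-ratio scaling gave 15 and 37, and quantile normalization gave 23 and 32 with a median of -0.04.

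Rpl29, which binds heparin and is required for normal growth, had 272 and 276 TPM in naïve ESCs, 284 and 322 in AKO, 160 and 251 in GKO, 275 and 257 in DKO and 793 and 735 in primed ESCs. It was the lowest canonical member in all 8 libraries of the other lines and was far above them in primed ESCs, a rise of 1.48 ± 0.17 (adjusted p = 3.03e-05). Rps3a1, a small-subunit protein near the mRNA exit, had 346 and 338 TPM in naïve ESCs, 412 and 360 in AKO, 308 and 304 in GKO, 339 and 299 in DKO and 672 and 695 in primed ESCs. It rose by 1.00 ± 0.075 (adjusted p = 1.88e-06), and 60.2% of its 75-base stretches occur in other annotated genes. Rpl38, which is known for selective translation of Hox mRNAs, had 3366 and 2984 TPM in naïve ESCs and 4423 and 4404 in primed ESCs, where it was the highest canonical member. Rpl19, often used to normalize expression, had 1937 and 1843 TPM in naïve ESCs and 2647 and 2593 in primed ESCs. Rpl38 rose by 0.48 and Rpl19 by 0.47, and the call of Rpl38 (adjusted p = 0.00719) was lost without naïve library 2. Both genes lie on chromosome 11, where the 959 other tested genes had a median of 0.30 in primed ESCs, against -0.08 elsewhere. The 7 canonical members of that chromosome had a median of 0.27. The part of this shift in their changes was not tested. Apart from the paralogs, Rpl21 was among the members that fell most, from 731 and 701 TPM in naïve ESCs to 431 and 434 in primed ESCs (-0.72 ± 0.047, adjusted p = 6.88e-07). Over the canonical members, the changes of Rpl29, Rps3a1, Rpl38, Rpl19 and Rpl21 kept their direction and their call under all 3 scalings.

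**Figure D5:**
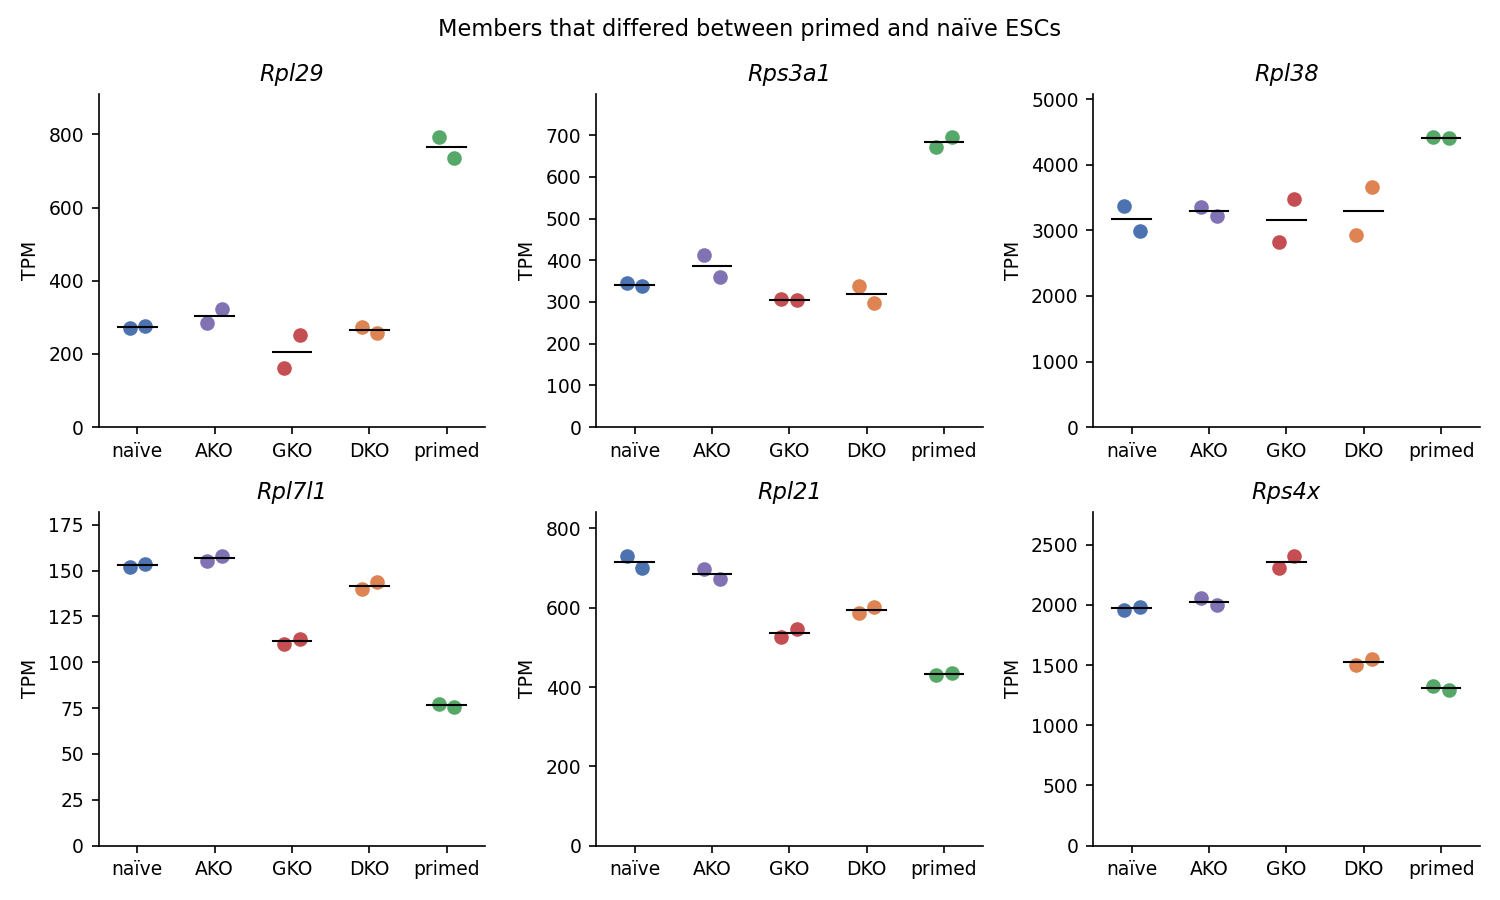
TPM of Rpl29, Rps3a1, Rpl38, Rpl7l1, Rpl21 and Rps4x in the 2 libraries of each line (points), with the line mean (bar). Primed ESCs are the highest line for Rpl29 (793 and 735 TPM), Rps3a1 and Rpl38 and the lowest for Rpl7l1 (77.5 and 75.5 TPM), Rpl21 and Rps4x.

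The proteins of the ribosomal stalk, which recruits translation factors, all had lower means in GKO than in naïve ESCs, and Rplp0 and Rplp1 passed there. Rplp0, their base, had 1791 and 1634 TPM in naïve ESCs, 1133 and 1335 in GKO, 1242 and 1543 in DKO and 1731 and 1555 in primed ESCs, and it fell in GKO by 0.48 ± 0.12 (adjusted p = 0.00916), a call lost without naïve library 1 or GKO library 1. Rplp1 had 4758 and 4377 TPM in naïve ESCs, 3058 and 3412 in GKO, 3977 and 4221 in DKO and 3378 and 3550 in primed ESCs. It fell by 0.50 ± 0.082 in GKO (adjusted p = 0.00104), but by quantile normalization the value was -0.10 and did not pass. Rplp2 had 1316 and 1217 TPM in naïve ESCs, 1063 and 1097 in GKO, 1110 and 1423 in DKO and 897 and 845 in primed ESCs, and fell in primed ESCs by 0.54 ± 0.10. Rpsa, which is also a laminin receptor, fell by 0.26 in GKO, 0.19 in DKO and 0.36 in primed ESCs. The first of these became -0.0043 by quantile normalization, and the second was lost under all 3 scalings. Rps6, the substrate of the S6 kinases, had 1192 and 1160 TPM in naïve ESCs and 993 and 1043 in primed ESCs, a change of -0.21 that turned to 0.019 by quantile normalization. Rpl5 and Rpl11, which together bind Mdm2 when assembly of ribosomes fails, were at 715 and 712 TPM and at 813 and 805 TPM in naïve ESCs. Rpl5 did not pass, with 643 and 680 TPM for GKO and 650 and 665 TPM for primed ESCs. Rpl11 fell by 0.23 in GKO and 0.17 in primed ESCs, the latter turning to 0.085 by quantile normalization and 0.0055 by rescaling. Both calls were lost under these scalings and without either naïve library, the first also without GKO library 1, and the second also by median-ratio scaling, with no filter on low values, and without either AKO library or primed library 1.

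Over all 5 lines, 72 of 88 members differed by the moderated F test, or 81.8%, where 92.1% of all genes did. The difference between the highest and the lowest line mean was under 0.5 (log2) for 49 of the 77 canonical members, with a median of 0.45, against 0.79 over all genes tested. On the TPM scale, primed ESCs were the lowest line for 43 canonical members and GKO for 29. The listed sums of both lines were also below those of naïve ESCs. This order was not counted over all genes or under other scalings. The smallest F values were those of Rps14, Rpl26 and Rpl17. Rpl26, which also binds the mRNA of p53, lay between 1947 and 2258 TPM in every library, and Rps14 between 1752 and 2038. The largest were those of Rpl10l, Rpl39l and Rpl7l1.

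Genes that work with the ribosome were mostly lower where they passed. Of 40 assembly factors and nucleolar proteins, 21 passed in GKO (52.5%, against 51.7% of all genes), 2 higher and 19 lower, where 24.7% of all genes were higher and 27.1% lower. In primed ESCs 37 passed (92.5%, against 80% of all genes), 4 higher and 33 lower, where 37.4% of all genes were higher and 42.5% lower. Rescaling gave 6 higher and 10 lower in GKO and 4 higher and 26 lower in primed ESCs. The median change of these 40 was -0.19 in GKO and -0.45 in primed ESCs, and under the 3 scalings it lay between -0.15 and -0.07 and between -0.36 and -0.28. Leaving out naïve library 1 gave 12 in GKO, and leaving out GKO library 2 gave 13. Nop2 (a methyltransferase of ribosomal RNA) and Rrn3 (which brings RNA polymerase I to its promoter) fell by 1.04 and 1.09 in primed ESCs. Of 17 translation factors and other genes with a pyrimidine start, 9 passed in GKO, 1 higher and 8 lower, and 14 in primed ESCs, 5 higher and 9 lower. By quantile normalization the median of these 17 turned from -0.18 to 0.02 in GKO and from -0.18 to 0.03 in primed ESCs. Eef1d, a subunit of the exchange factor of Eef1a, fell by 0.43 in GKO and 1.61 in primed ESCs. Fau, which encodes a small-subunit protein fused to a ubiquitin-like protein, had 1624 and 1551 TPM in naïve ESCs and 1079 and 1142 in GKO, a change of -0.52 ± 0.075 (adjusted p = 0.000498). Chromosomes 14 and 19 held 6 genes of these lists, chosen for mention after their values were seen. In GKO, Tpt1 and Gnl3 on chromosome 14 rose by 0.46 and 0.44, and Fau, Eef1g, Nolc1 and Rrp12 on chromosome 19 fell by 0.52, 0.50, 0.62 and 0.67, beside a median of -0.40 over the 392 other tested genes of chromosome 19.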

How the data were processed

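The 10 libraries were assigned to 5 lines and to replicates from their sample titles, and every library was used. The authors trimmed reads with Trim Galore, aligned them with STAR and estimated abundance with RSEM, and deposited the TPM of protein-coding genes. The sample records list Trim Galore 0.6.6, STAR 2.7.9a and RSEM 1.3.3. The study's methods name GRCm39 as the genome, and the sample records name other builds, so the build is not settled and the files hold no coordinates. TPM is scaled over all annotated transcripts before the list was limited, so listed sums differ between libraries, and depth cannot be read from TPM. RSEM divides reads among similar transcripts, which makes members with many copies uncertain.

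Deposited TPM values were transformed to log2(TPM + 1). Genes reaching 1 TPM in 2 or more libraries (12060) entered the tests, and changes on this scale understate those of low genes. The tests used limma 3.58.1 (R 4.3.3) with 1 fit of 5 line means and an intensity trend, with Benjamini-Hochberg adjustment over all 12060 genes and a threshold of 0.05. The fit was tested on simulated data. Members, lists and named genes were chosen with earlier results of these data known. The named genes were the paralogs and their parents, Rplp0, Rplp1, Rplp2, Rpsa, Rps6, Rpl5 and Rpl11, the 4 widest rises and falls per comparison with no overlap and at least 5 TPM, the 3 largest and smallest F, Fau, the 2 widest rises and falls of the related lists in GKO and primed ESCs, of which only some are given, and the genes of the label check. The 10 Mb windows were set after values were seen. Gene positions and 75-base stretches came from GRCm39 with GENCODE M39, and start windows from RefSeq (GRCm38.p6). Alternatives were a pseudocount of 0.1, no filter, a mean of at least 5 TPM, quantile normalization, median-ratio scaling, rescaling of the listed genes to an equal sum, no intensity trend, a replicate block, only the lines compared, and each library left out. A gene of the related lists is not reported here.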

Additional observations from a re-analysis of the deposited data

Results flagged for a closer look

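For the 10 members named above, or 11.4%, the difference between GKO and naïve ESCs departed from that between DKO and AKO. Of all genes 25.8% passed. The test was the limma interaction (GKO minus naïve) minus (DKO minus AKO) on the log2(TPM + 1) scale. An edit and the history of a line cannot be told apart in it. Rpl39l had the largest value, -3.15 (adjusted p = 1.25e-05), and Rpl10l the opposite sign at 1.28 (adjusted p = 6.00e-05). Rps4x was at 0.67 (adjusted p = 0.000586), Rpl7l1 at -0.31 (adjusted p = 0.00462) and Rpl9-ps6, a symbol at 2.45 to 3.94 TPM that shares 84.8% of its 75-base stretches with other genes, at -0.56 (adjusted p = 0.00692). These 5 stayed past the threshold without each library in turn.

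The remaining 5 passed narrowly: Rps19 at -0.29 (adjusted p = 0.0407), Rpl36a at 0.41 (adjusted p = 0.0373), Rplp1 at -0.38 (adjusted p = 0.0404), Rpl10 at -0.31 (adjusted p = 0.0419) and Rpl21 at -0.21 (adjusted p = 0.0466). Each of the last 4 lost its call without several of the 8 libraries of the contrast. Rplp1 also lost it by quantile normalization, and Rpl21 under all 3 scalings. For Rps19, whether the call held without each library is not given. A difference that GKO and DKO share to the same extent cancels in this contrast. The median of X-linked genes, however, was -0.06 in GKO and -0.25 in DKO. The tested genes within 10 Mb, given above, had positive medians around Rps4x and Rpl36a in GKO and negative ones in DKO. Around Rpl10 both medians were negative, with that of GKO the lower. The part of these regional shifts in the values of Rps4x, Rpl36a and Rpl10 was not tested.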

How the results depend on the processing

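Of 132 counts of called members under the alternatives, 118 stayed within 1.5 times the main count and 14 fell below. With no filter on low values, 19 members were called between GKO and DKO and 5 by the interaction, and with only the lines compared 10 between GKO and DKO. Without one library each, the counts ranged from 21 to 45 for GKO against naïve ESCs, 11 to 26 for DKO, 48 to 69 for primed ESCs, 8 to 33 for GKO against DKO, 5 to 13 for the interaction and 63 to 77 for any difference, and stayed 0 for AKO. A lone library left in a line was assumed to vary like the others. With the replicate number as a block, 6 members were called by the interaction, 35 in GKO, 17 in DKO and 62 in primed ESCs; same-numbered libraries had correlations of deviations from -0.128 to 0.078 between lines, so the numbers do not pair them. The member median moved to -0.0037 (GKO) and -0.038 (primed) by quantile normalization, to -0.074 and -0.072 by rescaling, and to -0.155 (primed) by median-ratio scaling. Rescaling and quantile normalization turned the DKO median positive, as given above. Leaving out libraries gave -0.127 to 0.036 (DKO), -0.231 to -0.055 (GKO against DKO), -0.258 to -0.122 (GKO) and -0.264 to -0.204 (primed). Reversed values were 0.085 (quantile) and 0.0055 (rescaled) for Rpl11 and 0.019 (quantile) for Rps6 in primed ESCs, and 0.056 (quantile) for Hnrnpa1 in GKO. In all, 236 values of named genes lost their call and 2091 kept call and direction. With 2 libraries per line and no depth, small differences could not be resolved.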

Other observations

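Members outside the subunit and paralog lists were at low levels apart from Rps19bp1. Rps19bp1, which is also a regulator of Sirt1, had 65.2 and 60.3 TPM in naïve ESCs, 66.7 and 63.4 in AKO, 43.9 and 46.9 in GKO, 47.0 and 54.0 in DKO, and 44.2 and 32.4 in primed ESCs. It fell by 0.46 in GKO (limma, adjusted p = 0.0144), a call lost without naïve library 1 or GKO library 1, and by 0.71 in primed ESCs (adjusted p = 0.000609). Rps12-ps3 was at 2.39 to 6.74 TPM and all of its 75-base stretches occur in other annotated genes. Rpl10-ps3 was at 0.314 to 0.902 TPM, and Rpl36-ps4 and Rpl9-ps1 were listed at 0 in all 10 libraries. Rpl3l, the striated muscle form of Rpl3, was at 0.324 to 1.154 TPM in the naïve, AKO, GKO and DKO libraries and listed at 0 in both primed libraries. Rpl3 itself was at 860 to 928 TPM in the former 8 libraries and at 1101 and 1159 TPM in the primed libraries.

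Between replicates of a line, naïve ESCs had 12 of 88 members higher in replicate 2, AKO 23 and primed ESCs 44, beside the 81 of GKO and the 74 of DKO given above.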
